A study of Homo sapiens with 44 samples.

Results

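MYC and 36 nucleolar genes of ribosome biogenesis were followed across castration-resistant prostate cancer xenografts. These 37 genes were chosen by name from the 23368 gene symbols of the count table, and all 37 were among the 13520 genes that passed the filter on low counts. The nucleolar genes comprised 5 genes of RNA polymerase I transcription, 3 nucleolar scaffold proteins, 3 proteins of box C/D and 3 of box H/ACA small nucleolar ribonucleoproteins (snoRNPs), 10 small-subunit factors and 12 large-subunit factors. The question was whether these genes moved with MYC from tumor to tumor, and whether they changed under antiandrogens. The tumors were grown from VCaP, a human prostate cancer line with a TMPRSS2-ERG fusion, at a single passage (p61) in athymic nude hosts (HSD:Athymic Nude-Foxn1nu), which lack T cells. All mice were castrated, those on vehicle included, and dosing started only after serum PSA had returned to its level from before castration. The 3 arms received vehicle (15 tumors), enzalutamide (14 tumors) or ARN-509, also called apalutamide (15 tumors), each drug at 20 mg/kg/day by gavage for 4 weeks. As many libraries were listed per arm as mice were dosed, so each was taken as the tumor of 1 mouse, and all of them stem from a single cell line.

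Ribosome production begins in the nucleolus, where RNA polymerase I transcribes ribosomal DNA into a long precursor. The precursor is modified by snoRNPs, cut by the small-subunit processome and matured into both subunits with the help of helicases, GTPases and scaffolding proteins. MYC is known for raising this program in growing cells: with its partner MAX it binds E-box sequences, CACGTG in the preferred form, near the start of many of these genes. In prostate cancer MYC is often amplified or overexpressed, and enlarged nucleoli are a classic feature of the malignant prostate gland.

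Promoter sequence was available from RefSeq (GRCh38.p14) for 28 of the 37 genes, as 300-base windows from 250 bases before to 50 bases after the transcription start. The motif CACGTG, which reads the same on both strands, was found for 11 of the 28 (39.3%, 95% Wilson interval 23.6 to 57.6%), namely DDX21, FBL, GAR1, GNL3, NOC3L, NOP2, PES1, RRP9, UTP18, UTP20 and WDR43. The same windows held it for 12.6% of the 9402 tested genes with a promoter and for 8.77% of all 27305 genes with one. Within 50 bases on either side of the start, a window chosen after the positions had been seen, the share of members was again 39.3%, against 5.20% of the tested genes and 3.51% of all genes. All 12 matches began between 31 bases before and 36 bases after the start, except the second match of UTP18 at 89 bases before it. Of these promoters, 4 are printed below with the motif in capitals, from 250 bases before to 30 bases after the start: WDR43 and GNL3, whose RNA rose and fell with MYC between tumors, and FBL and UTP20, for which no such relation was detected. WDR43 is read from chr2:28894417-28894696 on the plus strand, GNL3 from chr3:52685782-52686061 on the plus strand, FBL from chr19:39846350-39846629 on the minus strand and UTP20 from chr12:101279855-101280134 on the plus strand. A match is a string of letters and was not a measurement of MYC binding.
WDR43: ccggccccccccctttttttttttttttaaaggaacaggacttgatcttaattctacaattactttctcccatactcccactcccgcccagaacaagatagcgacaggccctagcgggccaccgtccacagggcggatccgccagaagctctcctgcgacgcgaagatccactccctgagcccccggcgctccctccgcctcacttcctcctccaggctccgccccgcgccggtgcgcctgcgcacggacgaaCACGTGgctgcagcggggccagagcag
GNL3: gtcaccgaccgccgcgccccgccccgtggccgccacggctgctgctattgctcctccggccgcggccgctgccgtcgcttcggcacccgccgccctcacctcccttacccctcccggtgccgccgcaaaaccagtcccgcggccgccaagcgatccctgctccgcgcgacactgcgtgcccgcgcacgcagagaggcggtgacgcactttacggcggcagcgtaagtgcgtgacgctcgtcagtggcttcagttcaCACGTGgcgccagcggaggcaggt
FBL: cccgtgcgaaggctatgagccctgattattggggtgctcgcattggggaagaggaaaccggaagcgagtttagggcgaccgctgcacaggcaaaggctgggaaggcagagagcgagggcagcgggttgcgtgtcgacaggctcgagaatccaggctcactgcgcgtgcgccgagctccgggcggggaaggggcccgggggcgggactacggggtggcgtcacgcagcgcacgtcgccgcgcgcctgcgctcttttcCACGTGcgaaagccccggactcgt
UTP20: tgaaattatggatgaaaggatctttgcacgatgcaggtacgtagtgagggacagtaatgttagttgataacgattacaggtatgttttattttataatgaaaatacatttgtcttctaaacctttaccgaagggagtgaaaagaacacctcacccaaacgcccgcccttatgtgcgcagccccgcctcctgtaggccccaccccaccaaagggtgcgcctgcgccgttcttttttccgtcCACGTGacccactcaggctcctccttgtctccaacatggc

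Library depth lay between 3377450 and 30125004 counts, with arm medians of 5713659 (vehicle), 8623565 (enzalutamide) and 7487470 (ARN-509). Enzalutamide 4 held 80142 counts and was left out, so 43 libraries were used, 13 of them on enzalutamide. Genes of the VCaP identity list were present in every library (KLK2 at 3551 to 6020 CPM, counts scaled to the library total), and many defining genes of other cell types were near 0, with PTPRC of leukocytes listed at 0 in 39 of 43 libraries, HBB of red cells in 38, CDH5 of endothelium in 36 and DCN of fibroblasts in 33. Other genes of the same lists were present: ENG of the endothelial list at 28.8 to 63.4 CPM, CD68 of the leukocyte list at 3.42 to 10.5, and COL1A1, FBN1 and PDGFRA of the fibroblast list at up to 15.8, 10.8 and 20.3. The summed level of the 3 fibroblast genes that passed the filter, COL1A1, FBN1 and PDGFRA, was 7.63 to 35.3 CPM in vehicle libraries. It was 5.40 to 24.3 in enzalutamide and 5.50 to 22.5 in ARN-509 libraries. The medians were 20.3 (vehicle), 9.03 (enzalutamide) and 9.51 CPM (ARN-509). Over all 11 listed fibroblast genes the sum was 6.08 to 38.4 CPM across libraries, and its part in the results was not tested. Within the arms, counts rose or fell with the GC content of the transcripts by different amounts: this slope, in log2 units per 10 percentage points of GC, ran from -0.12 to 0.28 in vehicle, from -0.06 to 0.33 in enzalutamide and from -0.32 to 0.10 in ARN-509 libraries. Vehicle 8 had the highest slope of its arm and held the highest level of its arm for 11 of the 36 nucleolar genes, while vehicle 10 held the highest for 5 and the lowest for 5. Other libraries stood out as much. Enzalutamide 12 held the highest level of its arm for 13 genes and enzalutamide 1 the lowest for 11. Vehicle 12 and ARN-509 15 each held the lowest of their arm for 10. Results are also given without vehicle 8 and vehicle 10 where that changed a call.

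MYC RNA differed widely between tumors of the same arm. Its level was 117 to 617 CPM in vehicle tumors (median 219), 121 to 841 in enzalutamide tumors (median 391) and 184 to 851 in ARN-509 tumors (median 385). The means were 299.6 ± 166.8 (SD, n = 15), 418 ± 187 (n = 13) and 415 ± 191 CPM (n = 15), and the 3 arms overlapped over most of their range. The 3 highest MYC levels were those of enzalutamide 12, ARN-509 2 and ARN-509 10, and the lowest were those of vehicle 6, enzalutamide 7 and vehicle 15. Around the arm means the SD of log2 CPM was 0.71 for MYC, the 97.6th percentile of all tested genes. MYC stood 0.48 ± 0.26 log2 units higher under enzalutamide than under vehicle (SE; 95% interval -0.04 to 1.0; edgeR quasi-likelihood, adjusted p = 0.248) and 0.47 ± 0.25 higher under ARN-509 (-0.03 to 0.97; adjusted p = 0.142), and neither difference passed the threshold of 0.05. The drug arms differed in MYC by 0.01 (-0.51 to 0.53; adjusted p = 0.979). Under limma voom with quality weights, MYC was called in both comparisons with vehicle, at 0.73 (adjusted p = 0.0435) and 0.72 (adjusted p = 0.0219). With an unweighted permutation of the mean log2 CPM, added after these calls had been seen, the differences were 0.53 (p = 0.0773) and 0.54 (p = 0.0443), or an adjusted p of 0.116 for each over the 3 comparisons. In bulk tumor RNA, fewer cells that express a gene and less RNA per cell cannot be told apart.

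**Figure D1:**
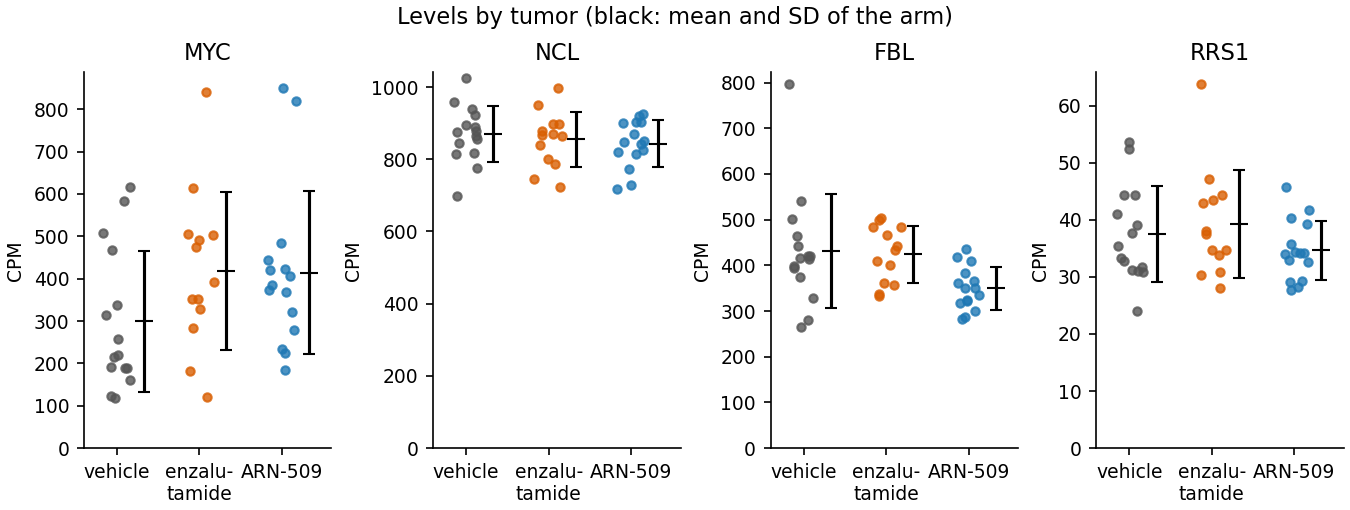
Levels of MYC, the scaffold protein gene NCL, the methyltransferase gene FBL and the large-subunit factor gene RRS1 in CPM (vertical axes from 0), 1 point per tumor, with the mean and SD of each arm in black. MYC ran from 117 to 851 CPM with overlapping arms, while NCL stayed between 698 and 1025 CPM.

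The nucleolar genes were far steadier between tumors than MYC. Their within-arm SD had a median of 0.20 log2 units, against 0.26 for all tested genes, and ran from 0.11 for UBTF, the ribosomal DNA-binding factor of RNA polymerase I, to 0.39 for the large-subunit factor NOP16. Among the scaffold proteins, NCL (nucleolin) had 698, 875 and 1025 CPM as the lowest, median and highest vehicle tumor, 723, 866 and 996 under enzalutamide and 718, 848 and 926 under ARN-509. NPM1 (nucleophosmin) had medians of 464, 485 and 449 CPM in the same order, over an overall range of 350.3 to 623. NOLC1, a chaperone of snoRNPs, had medians of 274, 287 and 293 CPM and a range of 231 to 354. For these 3 genes the arms overlapped over nearly their whole range.

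The polymerase genes POLR1A and POLR1B, which encode the 2 catalytic subunits, had medians between 62.3 and 78.6 CPM in all arms, and UBTF had 200, 200.5 and 195 CPM. Box C/D snoRNPs carry out 2'-O-methylation of ribosomal RNA. Of their proteins, the methyltransferase FBL ranged from 265 to 796 CPM in vehicle tumors (median 417), from 333 to 504 under enzalutamide (433) and from 282 to 435 under ARN-509 (351). Both ends of the vehicle range of FBL were vehicle 8, at 796, and vehicle 10, at 265. NOP56 had medians of 251, 224 and 211 CPM over 175 to 303. Box H/ACA snoRNPs carry out pseudouridylation. Of their proteins, the pseudouridine synthase DKC1 had medians of 214, 194 and 207 CPM over 158 to 257. The core protein NHP2 had 106 to 262 CPM in vehicle (median 140), 130 to 189 under enzalutamide (160) and 103 to 140 under ARN-509 (124). No ARN-509 tumor reached the enzalutamide median of NHP2, and vehicle 8 was again the highest tumor of all.

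Among the processing factors, the nucleolar GTPase GNL3 (nucleostemin) had 245 to 352 CPM in vehicle (median 288), 258 to 381 under enzalutamide (285) and 212 to 339 under ARN-509 (283). The helicase DDX21 had 136 to 249 CPM in vehicle (188), 139 to 240 under enzalutamide (170.5) and 148 to 255 under ARN-509 (216). RRP1B, a large-subunit factor, had 89.5 to 140 CPM in vehicle (128), 96.2 to 135 under enzalutamide (120) and 121 to 152 under ARN-509 (133). Every ARN-509 tumor thus stood above the enzalutamide median of RRP1B, though the ranges overlapped.

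Between tumors, a relation with MYC was detected for some of these genes and not for others. After the mean of each arm had been subtracted, log2 CPM of MYC was correlated with that of every other tested gene over the 43 tumors. Significance was taken from 100000 two-sided permutations of MYC within arms, with Benjamini-Hochberg adjustment over all 13519 genes. Of the 36 nucleolar genes, 5 correlated positively at an adjusted p under 0.05 and 0 negatively. Over all tested genes the calls came to 7.11%, with 3.64% positive and 3.47% negative. The called genes were RRS1, NOLC1, GNL3, WDR43 and RRP12, and a further 10 had an unadjusted p under 0.05. In all, 15 of the 36 had such a p, as had 3001 of all 13519 genes. The median r of the nucleolar genes was 0.28, against -0.001 for all tested genes. An r of at least 0.3 was reached by 16 of the 36, where 11.8% of all tested genes reached it. Members share libraries and some share base composition, so their r values are not independent of one another.

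RRS1, which helps build the 5S ribonucleoprotein into the large subunit, had the strongest relation (r = 0.64, permutation p = 5e-05, adjusted p = 0.0033; Spearman rho = 0.54, permutation p = 0.00045, adjusted p = 0.0160). Its level ran from 24.0 to 53.6 CPM in vehicle tumors (median 35.3), from 28.0 to 63.8 under enzalutamide (37.5) and from 27.8 to 45.8 under ARN-509 (34.2). The highest RRS1 level of all was in enzalutamide 12, whose MYC of 841 CPM was the highest of its arm. In an edgeR fit with MYC as a covariate, RRS1 was 20.0% higher for each doubling of MYC (slope 0.26 ± 0.05 SE on the log2 scale, adjusted p = 3.04e-04).

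The snoRNP chaperone gene NOLC1 was next (r = 0.58, permutation p = 7e-05, adjusted p = 0.0041; rho = 0.48, adjusted p = 0.0365), with levels of 249 to 337 CPM in vehicle, 231 to 331 under enzalutamide and 249 to 354 under ARN-509. Its slope was shallow, 7.96% per doubling of MYC. GNL3 had r = 0.52 (permutation p = 7e-04, adjusted p = 0.0184; rho = 0.47, adjusted p = 0.0406) and 8.34% per doubling. Of the 15 ARN-509 tumors, the lowest GNL3 level was in ARN-509 15, which had the second-lowest MYC of its arm, and the highest in ARN-509 2, which had the second-highest.

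WDR43, a subunit of the complex that couples ribosomal DNA transcription to early small-subunit assembly, ran from 58.6 to 114 CPM in vehicle tumors (median 85.1), 55.0 to 105 under enzalutamide (84.1) and 67.5 to 111 under ARN-509 (99.0). It had r = 0.52 with MYC (permutation p = 5.3e-04, adjusted p = 0.0153; rho = 0.56, adjusted p = 0.0090), or 13.4% per doubling. RRP12, a factor of small-subunit precursor export, ran from 44.5 to 72.9 CPM over all tumors and had r = 0.50 (permutation p = 7.7e-04, adjusted p = 0.0196; rho = 0.49, adjusted p = 0.0264), or 9.31% per doubling. The covariate fit called 6 of the 36 with a positive slope, against 4.39% of all tested genes. NOP16 followed at r = 0.42 and did not pass (adjusted p = 0.0784; rho = 0.39), although the edgeR covariate fit called it too (adjusted p = 0.0429).

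**Figure D2:**
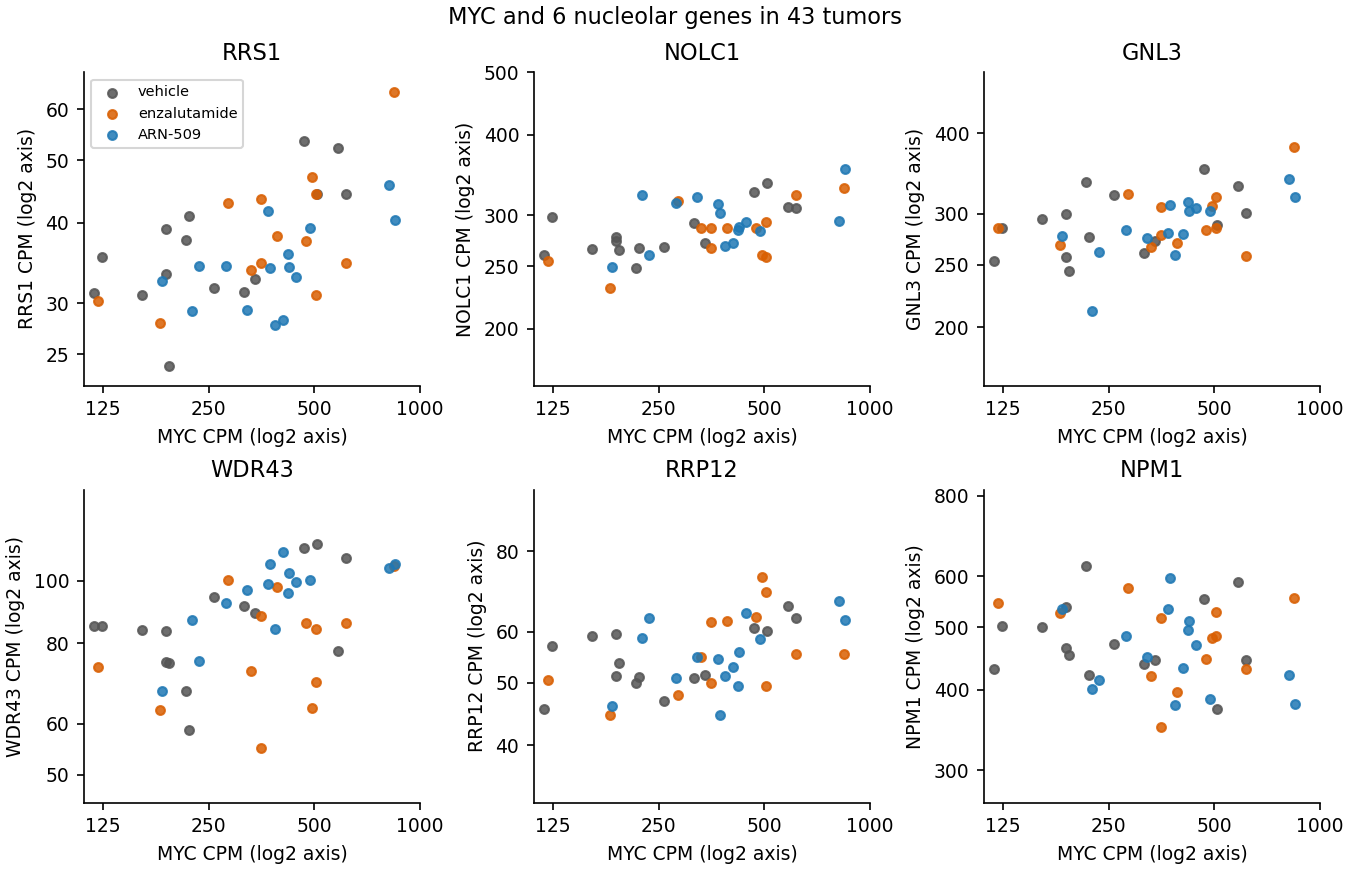
MYC (horizontal, CPM, log2 axis) against the 5 nucleolar genes called in the correlation and NPM1 (vertical, CPM, log2 axes), 1 point per tumor, colored by arm. RRS1 has the steepest relation (r = 0.64), while NPM1 has r = -0.16.

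The relation was computed again without the 2 tumors whose MYC lay farthest from the median after subtraction of arm means, enzalutamide 7 and vehicle 2. By Pearson, r was 0.61 for RRS1, 0.55 for NOLC1, 0.56 for GNL3, 0.50 for WDR43 and 0.47 for RRP12, and each kept an adjusted p under 0.05 (0.0044 to 0.0435). By Spearman rho, however, only WDR43 of these 5 kept an adjusted p under 0.05 in the 41 tumors (0.0417; RRP12 had 0.129). Leaving out any single tumor moved r of RRS1 to 0.60 at the lowest (without enzalutamide 12) and r of RRP12 to 0.46 (without enzalutamide 5). Without vehicle 8 and vehicle 10, the same 5 genes had an adjusted p under 0.05 by Pearson r. By rho, NOLC1 (adjusted p = 0.0824), RRP12 (0.0522) and POLR1B (0.0569) then missed the threshold, and RRS1, GNL3 and WDR43 passed. After removal of each library's trend with GC and length, 9 of the 36 were called, where 5.61% of all tested genes were called as positive, and RRS1 reached r = 0.74. The median r of the 36 was then 0.25, against 0.28 before, and 14 reached an r of at least 0.3, against 16 before. GNL3 then had r = 0.44 and WDR12 had 0.03, against 0.52 and 0.33 before. No correlation of MYC within arms was detected with library depth (r = 0.10, permutation p = 0.514, rho = -0.004) or the GC slope of the library (r = -0.05, permutation p = 0.744, rho = -0.08; adjusted p = 0.744 for both r over these 2 relations).

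By role, all 12 large-subunit factors had a positive r, from 0.08 for BOP1 to 0.64 for RRS1, with a median of 0.33. PES1, BOP1 and WDR12 form 1 complex, and their r values were 0.38, 0.08 and 0.33. The 5 polymerase I genes were all positive (median 0.24), from 0.05 for UBTF to 0.41 for POLR1B, which passed by rank alone (rho = 0.48, adjusted p = 0.0383; r, adjusted p = 0.0995). The box C/D genes had 0.36 for NOP58, 0.28 for NOP56 and -0.09 for FBL, and the box H/ACA genes had 0.32 for DKC1, 0.30 for GAR1 and -0.08 for NHP2. The 10 small-subunit factors were divided, with a median of 0.11 and 4 negative values. WDR43, WDR75 and UTP15 belong to the same subcomplex of the small-subunit processome, and their r values were 0.52, -0.01 and 0.28.

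The lowest 4 values were -0.18 for NOC4L, a small-subunit factor, -0.16 for NPM1, -0.14 for UTP3, a processome protein, and -0.09 for FBL. None of these was distinguishable from 0 (permutation, adjusted p from 0.519 to 0.774). NPM1 and FBL are among the best-known nucleolar proteins. NPM1 had 373 CPM in vehicle 10 and 350.3 CPM in enzalutamide 1, the lowest of their arms, while both tumors had middle to high MYC (509 and 351 CPM).

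**Figure D3:**
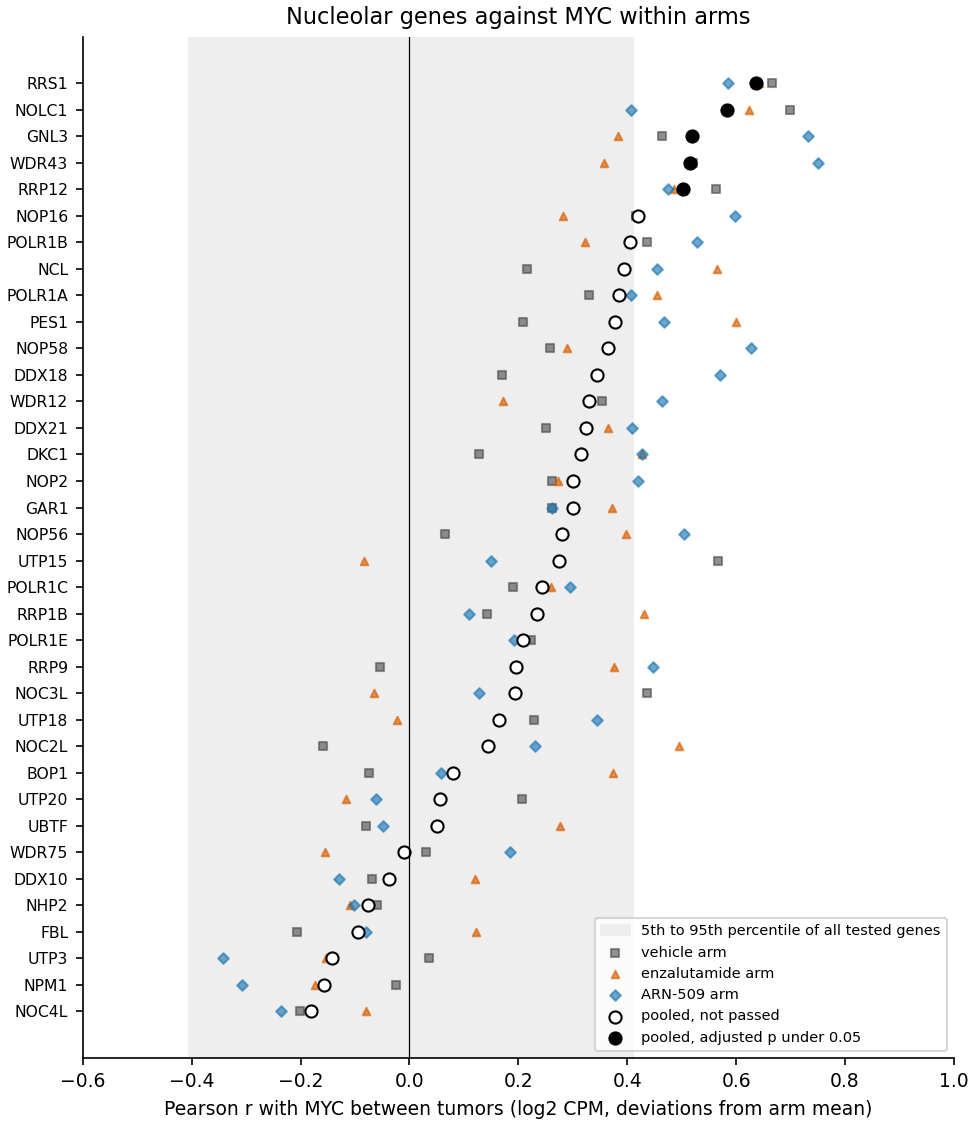
Pearson r with MYC (horizontal) for the 36 nucleolar genes in order, over 43 tumors after subtraction of arm means (circles, filled at adjusted p under 0.05) and within each arm (squares, triangles and diamonds). The grey band holds the 5th to 95th percentile of all tested genes, and 5 circles are filled, from RRP12 at 0.50 to RRS1 at 0.64.

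Within single arms the median r of the nucleolar genes was 0.21 in vehicle, 0.31 in enzalutamide and 0.38 in ARN-509 tumors. With 13 to 15 tumors, 0 of the 36 passed the adjusted threshold in any arm, and 5, 4 and 7 had an unadjusted p under 0.05. Over all 13519 genes, 0, 0 and 3 passed, and 1361, 1002 and 1461 had an unadjusted p under 0.05. RRS1 had r = 0.67, 0.64 and 0.59 in the 3 arms, and NOLC1 had 0.70, 0.62 and 0.41. WDR43 and GNL3 had their highest r in the ARN-509 arm, at 0.75 and 0.73. The slope on MYC was tested for a difference between arms in edgeR: 0 of 13519 genes passed (4.30% had an unadjusted p under 0.05), and the lowest unadjusted p of a nucleolar gene was 0.178.

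The nucleolar genes had a median r with each other close to their median r with MYC, but over a wider range. The median r over their 630 pairs was 0.24 (442 positive), against -0.002 over pairs of all tested genes, and single pairs ran from -0.74 for NOC4L with DDX21 to 0.88 for NOP16 with POLR1C. NOP56, NOP16 and POLR1C formed a tight trio (r of 0.84 to 0.88), and PES1 with RRP9, a protein of the U3 snoRNP, reached 0.83. Within roles the median was 0.59 for the box C/D and 0.48 for the box H/ACA genes, 0.24 for the large-subunit factors and 0.00 for the polymerase I genes. Pairs share libraries, depth and base composition. NOC4L and DDX21 differ widely in GC content, 64.8 against 41.1%, and after removal of the trend with GC and length their r was -0.22 and the median over all pairs was 0.31.

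Between enzalutamide and vehicle no difference was detected in any nucleolar gene, and most intervals were narrow. None of the 37 genes passed in edgeR (0 higher and 0 lower), where 10.8% of all tested genes passed, 5.10% higher and 5.67% lower. None of the 37 had an unadjusted p under 0.05 either, against 3266 of the 13520 tested genes. DESeq2 called 0 and limma voom called 1, which was MYC. The 36 nucleolar genes lay between -0.11 and 0.13 on the log2 scale, with a median of 0.01, and for 34 of them (94.4%) the 95% interval stayed within a 1.25-fold change in either direction, as it did for 50.7% of all tested genes. The smallest p after that of MYC belonged to POLR1E, a subunit associated with RNA polymerase I. POLR1E had 51.1 to 100.2 CPM in vehicle (median 71.5) and 62.2 to 90.8 under enzalutamide (76.3), a difference of 0.13 ± 0.07 (adjusted p = 0.274). DKC1 differed by -0.09 ± 0.06 (adjusted p = 0.413), DDX21 by -0.11 ± 0.09 (adjusted p = 0.471), RRP1B by -0.07 ± 0.06 (adjusted p = 0.478) and WDR12 by 0.08 ± 0.06 (adjusted p = 0.49). The 2 intervals that reached past 1.25-fold were those of POLR1A (-0.34 to 0.12) and NOP16 (-0.20 to 0.38).

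ARN-509 against vehicle gave small differences in both directions. Of the 37 genes, 3 were higher and 4 lower, where 30.8% of all tested genes passed (14.7% higher and 16.1% lower), so the share of members called was below that of all genes. The genes that rose were NOC3L, a factor of early large-subunit assembly, and UTP20 and WDR75 of the small-subunit processome. NOC3L had 27.2 to 44.1 CPM in vehicle tumors (median 38.0) and 36 to 53.2 under ARN-509 (42.6), a rise of 0.24 ± 0.07 (adjusted p = 0.0089). UTP20 had 48.1 to 99.0 CPM in vehicle (71.8) and 64.8 to 104 under ARN-509 (81.6), a rise of 0.23 ± 0.08 (adjusted p = 0.0318). WDR75 had 60.3 to 87.9 CPM in vehicle (78.2) and 76.4 to 98.9 under ARN-509 (82.8), a rise of 0.17 ± 0.06 (adjusted p = 0.0349).

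The genes that fell were NHP2, FBL, NOP56 and NOC2L, a large-subunit factor also known as an inhibitor of histone acetylation. NHP2, whose levels are given above, fell by 0.30 ± 0.09 (adjusted p = 0.0088), or to 0.811 of its vehicle level. FBL fell by 0.30 ± 0.10 (adjusted p = 0.0191), NOC2L by 0.16 ± 0.06 (adjusted p = 0.0474) and NOP56 by 0.17 ± 0.07 (adjusted p = 0.0481). NOC2L had 98.8 to 156 CPM in vehicle (median 115) and 89.5 to 128 under ARN-509 (105). For each of these 7 genes the 2 arms overlapped. The calls of NHP2, FBL and NOC3L held in all 43 fits that left out 1 library. WDR75 lost its call without vehicle 7, 8, 11 or 12 or ARN-509 2, 6 or 12 (adjusted p up to 0.0700), and UTP20 without vehicle 7, 8, 11 or 12 or ARN-509 10, 14 or 15 (up to 0.0717). NOC2L lost it in 23 of the 43 fits (up to 0.0960) and NOP56 in 24 (up to 0.0994). In all, 3 genes were called without vehicle 7, 8 or 11, and 4 without vehicle 12 or ARN-509 6, 12 or 14.

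**Figure D4:**
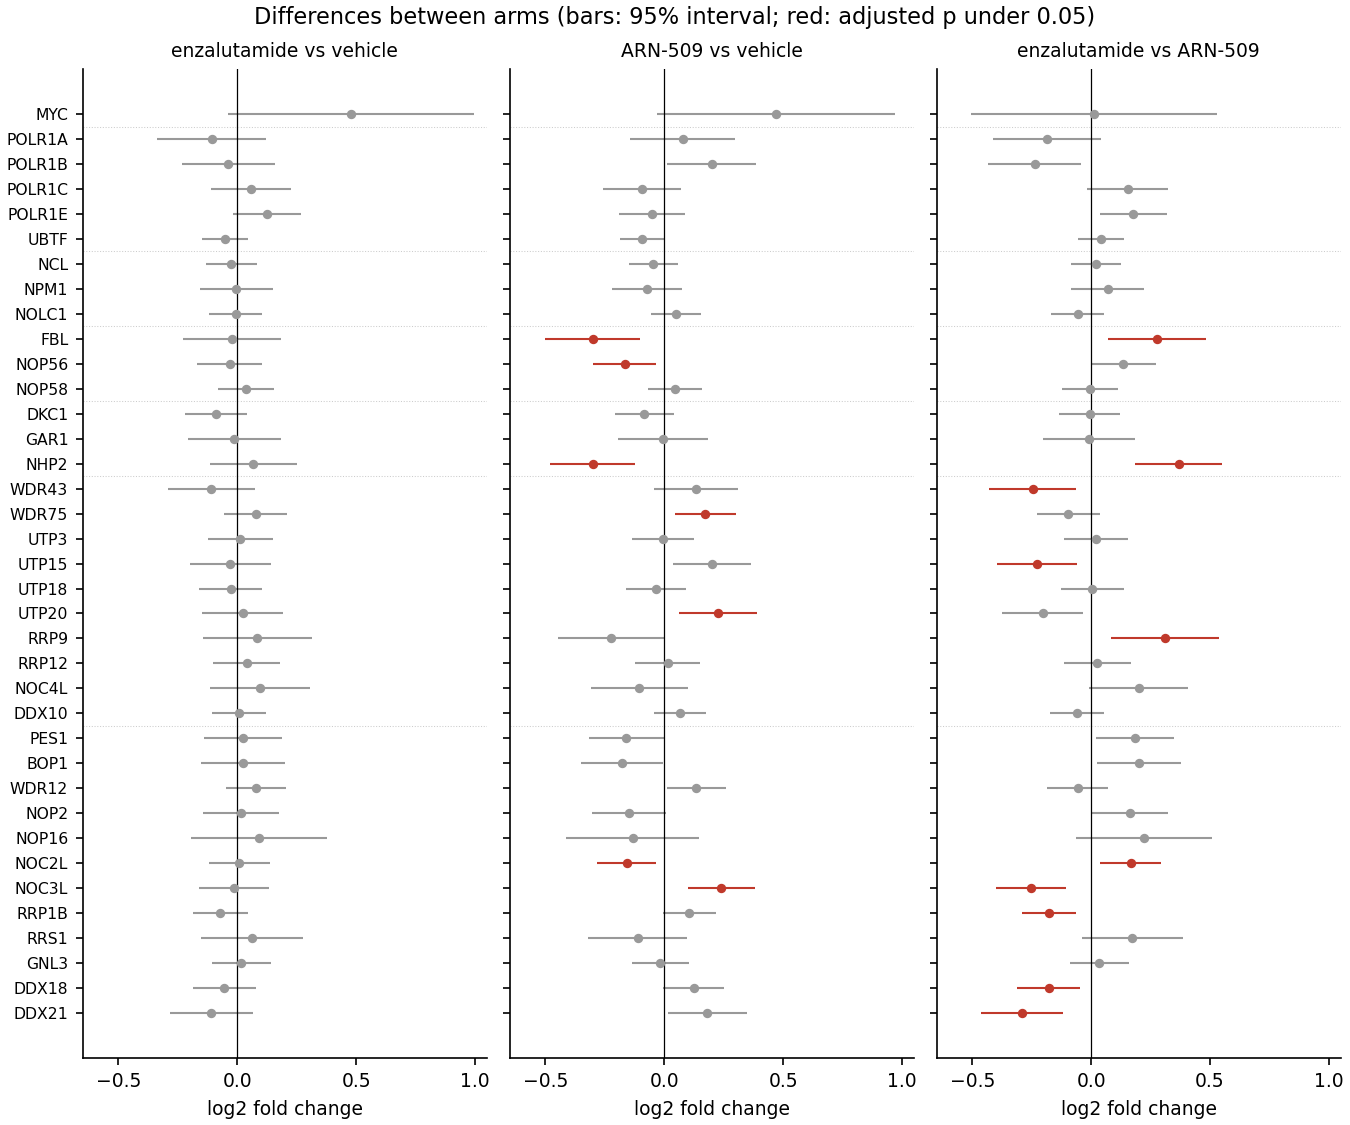
Log2 fold changes of the 37 genes (points) with 95% intervals (bars) in the 3 comparisons, grouped by role, red where the edgeR adjusted p was under 0.05. There are 0 red genes for enzalutamide against vehicle, 7 for ARN-509 against vehicle and 10 for enzalutamide against ARN-509.

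Direction went with base composition. The 3 genes that rose under ARN-509 had transcripts of 37.7 to 42.3% GC, and the 4 that fell had 50.9 to 57.7%. Over the 37 genes, Spearman's rho between GC content and the log2 fold change was -0.74, and over 12947 tested genes with a known GC content it was -0.41, both given as descriptions across genes, which are not replicates. The ARN-509 libraries also had the lowest GC slopes, with a median of -0.08 log2 units per 10 percentage points, against -0.01 in vehicle. With each library's trend with GC and length removed, 2 of the 37 genes passed, both lower: FBL by 0.19 (adjusted p = 0.0485) and NOP56 by 0.16 (adjusted p = 0.0454). NOC3L then stood at 0.11 (adjusted p = 0.0734) and NHP2 at -0.12 (adjusted p = 0.0591). What part of the differences the GC slope accounts for was not tested. Without vehicle 8 and vehicle 10, 5 of the 37 passed, and NOC2L (adjusted p = 0.0809) and NOP56 (adjusted p = 0.0567) did not.

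**Figure D5:**
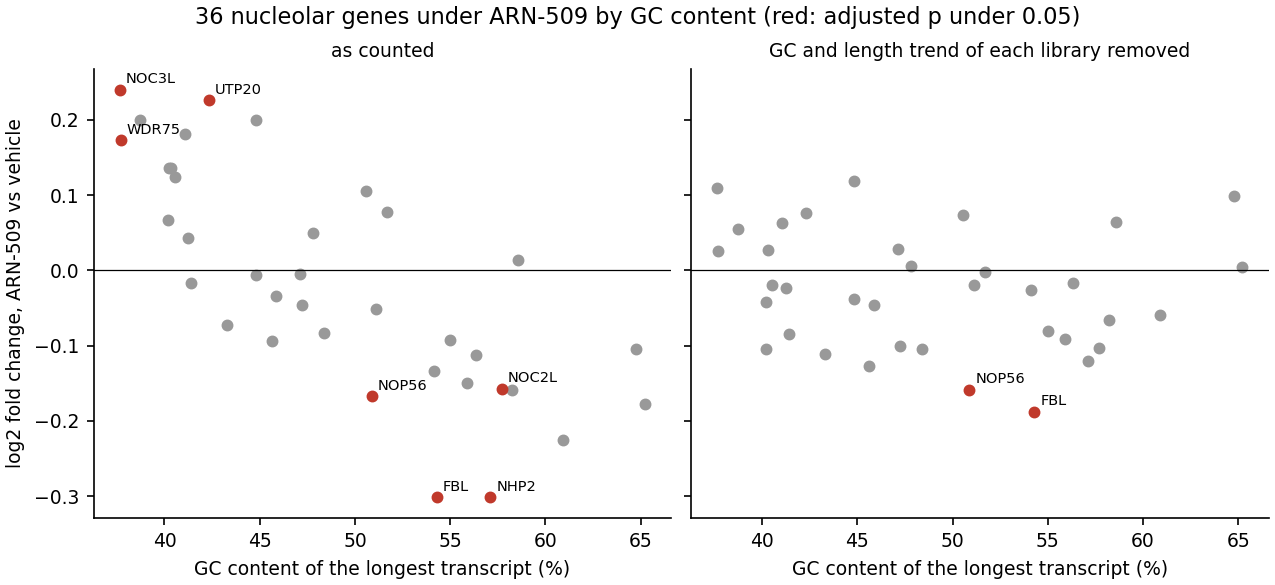
Log2 fold change of the 36 nucleolar genes under ARN-509 against vehicle (vertical) by GC content of the longest transcript in percent (horizontal), as counted (left) and with each library's trend with GC and length removed (right), red at adjusted p under 0.05. On the left the values tend to fall as GC rises, with the highest at NOC3L (0.24, 37.7% GC) and the lowest at NHP2 (-0.30, 57.1% GC). BOP1, with the highest GC at 65.2%, stood at -0.18. On the right 2 genes, FBL and NOP56, are red.

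The 2 drug arms were also compared directly, at equal dose and time. Of the 37 genes, 4 were higher and 6 lower under enzalutamide than under ARN-509, where 26.8% of all tested genes passed (12.2% higher and 14.6% lower). This comparison shares the ARN-509 libraries with the one above. Higher under enzalutamide were NHP2 (0.37 ± 0.09, adjusted p = 0.0056), the U3 snoRNP protein gene RRP9 (0.31 ± 0.11, adjusted p = 0.0383), FBL (0.28 ± 0.10, adjusted p = 0.0399) and NOC2L (0.17 ± 0.06, adjusted p = 0.0474). RRP9 had 31.3 to 55.6 CPM under enzalutamide (median 35.4) and 21.4 to 40.8 under ARN-509 (31.6).

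Lower under enzalutamide were NOC3L (-0.25 ± 0.07, adjusted p = 0.0116), the helicase genes DDX21 (-0.29 ± 0.09, adjusted p = 0.0135) and DDX18 (-0.18 ± 0.07, adjusted p = 0.0381), RRP1B (-0.18 ± 0.06, adjusted p = 0.0214), UTP15 (-0.23 ± 0.08, adjusted p = 0.0381) and WDR43 (-0.24 ± 0.09, adjusted p = 0.0408). UTP15, a processome protein, had 10.9 to 17.6 CPM under enzalutamide (14.6) and 13.4 to 20.6 under ARN-509 (17.5). DDX18 had 71.8 to 103 CPM under enzalutamide (83.7) and 67.3 to 115 under ARN-509 (98.5). The 4 higher genes had 54.3 to 60.9% GC and the 6 lower genes 37.7 to 50.6%. Spearman's rho of GC with the log2 fold change was 0.78 over the 37 genes and 0.60 over the tested genes. After removal of the trend with GC and length, 0 of the 37 passed and DDX18 changed sign to 0.01 (adjusted p = 0.924). The calls of NHP2, NOC3L, DDX21 and RRP1B held in all 43 fits that left out 1 library, and the other 6 were lost in 11 to 25 of them. In all, 4 genes were called without enzalutamide 7, 9 or 11 or ARN-509 6, 12 or 14, 5 without ARN-509 9, and 6 without enzalutamide 2 or ARN-509 8 or 10. With enzalutamide 4 included, 4 were called, and with limma voom 17. Without vehicle 8 and vehicle 10, 14 were called: the same 10 and also POLR1B (adjusted p = 0.0184), BOP1 (0.0241), POLR1E (0.0400) and UTP20 (0.0477).

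Further genes of the ribosome biogenesis machinery were examined from fixed lists. In 5 of them (small-subunit and large-subunit factors, polymerase I and ribosomal DNA factors, snoRNP assembly and the RNA exosome), 144 genes were tested. Under enzalutamide, 0 passed in edgeR and 10 had an unadjusted p under 0.05, where 1455 and 3266 of all 13520 tested genes did. Under ARN-509, 11 were higher and 24 lower, where 14.7% and 16.1% of all tested genes were. Between the drugs 23 were higher and 14 lower under enzalutamide, where 12.2% and 14.6% of all tested genes were. With MYC, 18 correlated positively and 0 negatively (3.64% and 3.47% of all tested genes), with a median r of 0.12, and 53 of the 144 had a negative r. The 11 called small-subunit factors of 47 were led by UTP23 (r = 0.64, rho = 0.63), NOP14 (r = 0.60, rho = 0.54) and TSR1 (r = 0.60, rho = 0.57), with permutation-adjusted p from 0.0013 to 0.0037. Of 51 large-subunit factors, 4 were called, SDAD1 (r = 0.62) and MAK16 (r = 0.59) first. 1 gene of 18 in the polymerase I list, CD3EAP, which encodes another polymerase I subunit, was called (r = 0.55, adjusted p = 0.0120), and the median r of that list was -0.10. The snoRNP assembly list had a median of -0.23, with NAF1 (r = 0.51) and NUFIP1 (r = 0.47) called among 13 genes. Of 15 exosome genes, EXOSC6 had the smallest p (r = 0.44, adjusted p = 0.0557), and of 22 genes of RNA polymerase III, which makes the 5S ribosomal RNA, 1 was called, POLR3A (r = 0.54).

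Genes around MYC itself gave a mixed picture. Of 28 tested genes of the MYC network, the MYC antagonist MNT (r = 0.66, adjusted p = 0.0013) and the kinase gene PIM1 (r = 0.50, adjusted p = 0.0233) correlated with MYC. Another antagonist, MXI1, was 0.40 ± 0.09 higher under ARN-509 (adjusted p = 8.41e-04), while RUVBL2, an ATPase of MYC cofactor complexes, was lower by 0.38 ± 0.10 (a log2 fold change of -0.38, adjusted p = 0.0026). In all, 3 of the 28 were higher and 3 lower under ARN-509, where 14.7% and 16.1% of all tested genes were. Under enzalutamide 3 of the 28 were higher and 0 lower, where 5.10% and 5.67% of all tested genes were. Those higher under enzalutamide were MXD4 (0.26), PIM1 (0.31) and CDK9 (0.17), with edgeR adjusted p from 0.0308 to 0.0367. Of 43 other known MYC targets outside ribosome biogenesis, 1 correlated with MYC, the purine synthesis gene GART (r = 0.46, adjusted p = 0.0423), and the median r was -0.04. In that list 19 were lower and 3 higher under ARN-509, where 16.1% of all tested genes were lower and 14.7% higher. The smallest p belonged to the spermidine synthase gene SRM (-0.44 ± 0.09, adjusted p = 1.71e-04), the prohibitin gene PHB2 (-0.38 ± 0.08, adjusted p = 2.32e-04) and the ornithine decarboxylase gene ODC1 (-0.57 ± 0.13, adjusted p = 7.59e-04). ODC1 was also lower under enzalutamide (-0.47 ± 0.13, adjusted p = 0.0144), with MTHFD1 (-0.24 ± 0.06, adjusted p = 0.0097). MYC itself was not called in either comparison by the main edgeR fit.

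Of 27 proliferation genes, 26 had a negative r with MYC, with a median of -0.30. By adjusted p 0 were called, by Pearson r or Spearman rho. An unadjusted p under 0.05 was found for 11, and for 3001 of all 13519 genes. AURKA (r = -0.43), CCNA2 (-0.42) and CDK1 (-0.41), which drive mitosis, had the smallest p (adjusted p from 0.0672 to 0.0935). Of the 27, 16 were lower under ARN-509 and 6 under enzalutamide, where 16.1% and 5.67% of all tested genes were lower. Of the 12 genes of the VCaP identity list, 7 were called as positive with MYC, where 3.64% of all tested genes were. Among the 7 were the pioneer factor FOXA1 (r = 0.76) and TMPRSS2 (0.64), while 3 of the 12 genes had a negative r.

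The genes outside the members whose pattern was most like that of MYC over the 43 tumors, by Pearson r within arms, included AMD1 (0.85), MIR17HG (0.84), SH3RF1 (0.81) and INHBB (0.80). MIR17HG is the host gene of the miR-17-92 cluster and AMD1 encodes an enzyme of polyamine synthesis. The permutation p of each was 1e-05, the smallest that 100000 permutations can give. RRS1, the nucleolar gene most like MYC, ranked 55th of the 13519 genes.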

How the data were processed

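RNA of 44 xenograft tumors was sequenced from Illumina TruSeq RNA v2 libraries, a kit that does not mark strand, per the labels' protocols. Raw counts, 1 table by gene symbol, were deposited by the authors. The submitters' processing notes name hg19, HTSeq 0.6.1, Picard 1.77, TopHat2 2.1.0 and bcl2fastq 1.8.4. Not given in the sources used here are the annotation, the strand setting and how mouse reads were handled, so reads of mouse cells and of overlapping or related genes may stand in some counts.

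The counts were filtered by arm (filterByExpr), scaled by TMM and fitted in 1 model of 43 libraries with arm as the only term in edgeR 4.0.16 (R 4.3.3), by the robust quasi-likelihood test with Benjamini-Hochberg adjustment over 13520 genes at a threshold of 0.05. Levels are CPM of the TMM-scaled totals. SE are the log2 fold change over the square root of F, and intervals are at 95%. Correlations used log2 CPM (prior count 2) as deviations from arm means, with MYC permuted 100000 times within arms (Python 3.11.15). GC content and length came from the longest GENCODE v29 transcript of each symbol, with a value for all 37 members and 95.8% of tested genes, and were removed as a trend of each library through offsets. Alternatives were DESeq2 1.42.0, limma 3.58.1 voom with quality weights, other scalings, filters, prior counts and library sets, a replicate block and leaving out each library. No columns of an arm were identical, and the counts of every pair within an arm differed by more than sampling noise (chi-square per degree of freedom at least 3.27). Tests were checked on simulated data.

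Members, lists and tests were chosen with earlier results of these data known. Genes described with statistics are MYC, the up to 6 members with the smallest p in each comparison, the 6 members with the highest and the 4 with the lowest r with MYC, up to 3 genes of every other list with the smallest p in the comparison described, and the 5 non-members with the highest r. Levels are given for the 12 members that were highest on average. Members outside this rule that are named were chosen after their values were seen. Some genes that this rule names are not reported here.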

Additional observations from a re-analysis of the deposited data

How the results depend on the processing

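Enzalutamide against vehicle called 1455 genes and 0 of the 37 members, and limma voom called 2547 and 1. Leaving out each library gave 1145 to 1794 genes and 0 to 0 members. For ARN-509 against vehicle, 7 members became 4 with no filter on low counts or with only the 2 arms, and 2 after removal of the GC and length trend; leave-one-out fits gave 3 to 10 members and 3261 to 5045 genes. For enzalutamide against ARN-509, 10 members became 4 with no filter or with enzalutamide 4, 17 with limma voom and 0 after removal of the GC and length trend, and 3623 genes became 5707 and 1215 in the last 2 settings; leave-one-out fits gave 4 to 13 members and 2680 to 4269 genes. DDX18 changed from -0.18 to 0.012 with that trend removed. The MYC correlation called 961 genes and 5 members. In the vehicle, enzalutamide and ARN-509 arms alone it called 0, 0 and 3 genes and 0, 0 and 0 members, with fewer tumors each. It called 1580 genes and 9 members after removal of the GC and length trend, and 12 members with enzalutamide 4, a library of low depth with which the median r of all tested genes went from -0.001 to 0.26 and 1083 genes were called positive against 229 negative. The E-box share of members was 10.7% in the 100 bases before the start, which leave out the matches after it. For these 3 of 28 members the Wilson interval was 3.71 to 27.2%. The shares of the tested genes (6.30%) and of all genes (4.25%) in that window lay within it. The cause of the other changes was not tested.

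Same-numbered tumors of different arms did not deviate together: 15 of 41 such pairs correlated above 0.1 (median 0.01), and 5 of 43 libraries correlated best with their own number. The replicate block gave 1197, 4084 and 3290 genes and 0, 7 and 8 members in the 3 comparisons, and 897 genes and 7 members for MYC: RRS1, NOLC1 and WDR43 were called again, NCL, POLR1A, DDX18 and WDR12 were added, and GNL3 (adjusted p = 0.103) and RRP12 (0.119) were not called. Of the values of single members under other settings, 1618 kept direction and side of the threshold, 46 gained and 63 lost a call. MYC under ARN-509 gained a call with the block (0.53, adjusted p = 0.0315). Depth left each member at least 54 counts in every library used, and enzalutamide 4, with 80142 counts in all, gave 0 to 15 counts per member.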
